A study of Mus musculus with 43 samples.

Results

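The members described here were 3720 autosomal H3K4me3 peaks that lay away from gene starts and were in the peak lists of the juvenile mouse testis at postnatal day 14 (P14) but not in those of day 7 (P7). They were chosen by 4 peak lists of trimethylated histone H3 lysine 4 (H3K4me3): a member was a peak of the first P14 list that overlapped a peak of the second P14 list by at least 1 bp, overlapped no peak of either P7 list, and had its summit more than 3000 bp from every transcript start of GENCODE vM21. Of the 24594 autosomal peaks in the first P14 list, 20943 were found in the second list, 5323 of these were in neither P7 list, and 3720 of those were distal, which is 15.1% of the autosomal peaks of the first list. Presence at P14 and absence at P7 are therefore what selected the members and are not results.

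The series mapped histone marks by CUT&Tag, in which an antibody directs a transposase to cut and tag the DNA around a mark, in germ cells of C57BL/6J mice at P7 and P14. Besides H3K4me3, the lists used here were for asymmetric dimethylation of H4R3 (H4R3me2a), H3R2 (H3R2me2a) and H3R8 (H3R8me2a), monomethylation and symmetric dimethylation of H4R3 (H4R3me1 and H4R3me2s), and acetylation of H3K27 (H3K27ac). All were wild type (WT) except 2 H4R3me2s lists at P7 from Prmt1 dKO testes, in which tamoxifen for 3 days removed Prmt1, the main enzyme of asymmetric arginine dimethylation, through Ddx4-CreERT2, a Cre driven by a germ cell promoter. The submitters' protocol note names the tamoxifen course for all experiments without excluding the WT animals, so whether the WT mice received it is not settled by it. RNA was measured at P7 only, and the libraries used here were those labelled WT, 2 Smart-seq2 libraries of isolated spermatogonia and 3 of whole testis, whereas the Prmt1 dKO libraries were not used. The study's methods describe the sorted control cells as coming from Ddx4-CreERT2 mice with 1 floxed and 1 normal Prmt1 allele, and the animals of the study had a C57BL/6J background. Each mark had 2 lists at each age, except for H4R3me2a with 3 at both ages and H4R3me2s with 3 at P14. The P14 samples carry Spermatogonia in their titles and Spermatocyte as their cell type. The H3K4me3 lists held 18465 and 19162 peaks at P7 and 25627 and 26635 at P14, and since no list gives read numbers the sequencing depth behind them is unknown. Nothing in the labels says that replicates came from separate animals, so the p-values below measure only the spread between these lists.

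The cells came from dissociated tubules passed through a strainer, a step that the study's methods describe as removing Sertoli cells. The study also examined the P7 filtrate and reported that germ cells made up nearly all of it. Marker gene promoters were read against all autosomal protein-coding genes, of which 60.6% at P7 and 62.4% at P14 had H3K4me3 by the same rule, so a marked promoter does not identify a cell type. H3K4me3 lay within 1000 bp of a start in both lists for 9 of 10 spermatogonial markers at P7 and 8 of 10 at P14, and for 11 of 15 spermatocyte markers at P7 and 14 of 15 at P14. Hormad1, Spo11 and Piwil1 were the spermatocyte genes marked at P14 and not at P7. Sertoli cell markers were marked at 9 of 9 autosomal genes at P7 and 7 of 9 at P14, Dhh and Fshr being the exceptions at P14. None of 6 Leydig cell genes and none of 6 macrophage genes was marked at either age, and peritubular, endothelial and erythroid lists had 1 of 5, 2 of 4 and 1 of 3 genes marked at P7 and 2 of 5, 1 of 4 and 1 of 3 at P14. Most spermatocyte markers were thus already marked at P7. The part of the cell mixture in the values below was not tested.

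In the testis, P7 falls in the time of dividing spermatogonia, and by P14 the first wave of germ cells has entered meiotic prophase. Early in meiosis the germ cell protein PRDM9 binds DNA through an array of zinc fingers and trimethylates H3K4 on the nucleosomes at both sides of its binding site, mostly away from promoters. Such sites are then used by SPO11 to make the DNA breaks that start recombination, whereas H3K4me3 at promoters is placed by other methyltransferases and goes with transcription. H3K27ac marks active promoters and enhancers, so a distal H3K4me3 peak can belong to an enhancer, an unannotated start or a recombination site.

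Short sequences set the members apart from the ground beside them. In windows of 200 bases at the middle of each peak, words of 8 bases were counted on both strands and compared with windows of the same size whose middles lay 1000 bases to each side. The words were ranked on the 1935 members of odd-numbered autosomes and then counted on the 1785 members of even-numbered autosomes, which had no part in the ranking. All of the 10 leading words were more frequent at the middle than at the sides on the even autosomes, and most overlapped each other when shifted by a few bases. GATGCTGC was in 4.48% of the even-autosome members at the middle against 0.672% at the sides. GGTGCTGC was in 3.19% against 0.560%, and ATGCTGCT in 3.36% against 0.840%. GCTGCTGC was in 4.59% against 1.46%, and TGCTGCTG in 4.93% against 1.79%.

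These words were joined, after they had been seen, into the gapped string GNTGCTNCT, where N is any base. It was searched on both strands. The string was in the middle window of 441 of 3720 members, or 11.9% (95% Wilson interval 10.9% to 12.9%, counting error only), against 3.43% of the side windows. Over all 20943 P14 peaks found in both lists it was in 7.62%. The share was 11.8% on odd and 11.9% on even autosomes. This is not a held-out check, since the string was chosen after the words had been seen. The nearest site lay on the plus strand in 227 of the 441 members, 375 members held 1 site, 41 held 2 and 25 held 3 or more.

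The sites below are those of the 6 members with the highest mean H3K4me3 fold enrichment among those that held the string once outside exons, and they are shown because they let the string and its flanks be compared. Each is 59 bases of GRCm38 (the mm10 build of the lists, read from RefSeq), written 5′ to 3′ on the strand that reads GNTGCTNCT, with the string in capitals.
Cadm2 intron, chr16:66906193-66906251, plus strand: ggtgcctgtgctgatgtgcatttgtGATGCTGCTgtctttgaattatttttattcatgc
Intergenic, nearest start Drd1, chr13:54019654-54019712, minus strand: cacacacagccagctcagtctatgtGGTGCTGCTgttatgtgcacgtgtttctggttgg
Snx29 intron, chr16:11604094-11604152, minus strand: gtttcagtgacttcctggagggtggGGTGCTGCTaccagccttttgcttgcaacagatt
Rapgef6 intron, chr11:54600473-54600531, plus strand: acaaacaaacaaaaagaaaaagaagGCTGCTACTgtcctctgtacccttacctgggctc
Intergenic, nearest start Gm12106, chr11:31272037-31272095, minus strand: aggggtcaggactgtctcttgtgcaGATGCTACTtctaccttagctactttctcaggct
Intergenic, nearest start Gm23151, chr5:126383378-126383436, minus strand: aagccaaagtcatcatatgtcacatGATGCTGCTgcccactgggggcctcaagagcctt

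In these 6 members the string lay 13, 52, -23, -33, 8 and -68 bases from the middle of the peak, in the order shown, negative values being toward the lower coordinate. The mean fold enrichments of the peaks were 9.16, 8.88, 8.54, 8.52, 8.33 and 8.29 in the same order. The Rapgef6 peak, chr11:54599826-54601244, was the one closest to a gene start, with its summit 4134 bp away, and the Gm12106 peak was the most remote at 87826 bp. The Cadm2, Gm12106 and Gm23151 peaks overlapped no P14 peak of any other mark.

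Not every strong peak held a match. The member with the highest mean fold enrichment, chr14:92214081-92215090, lay between genes and held no match in its middle window, whose 200 bases (chr14:92214486-92214685, plus strand) are printed in lower case because none of them belongs to a match.
Strongest member, middle window: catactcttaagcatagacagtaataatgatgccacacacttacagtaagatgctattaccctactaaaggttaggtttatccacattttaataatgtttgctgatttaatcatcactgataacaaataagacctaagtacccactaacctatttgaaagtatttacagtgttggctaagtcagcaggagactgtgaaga
By contrast, a member in an intron of Lrmda, also strong with a mean fold enrichment of 9.16, held 10 matches in 200 bases. The string is part of a tandem repeat there, and the member's nearest site is shown to make that visible (chr14:22348972-22349030, minus strand).
Lrmda intron: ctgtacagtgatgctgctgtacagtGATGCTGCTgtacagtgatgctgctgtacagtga
The Lrmda member also overlapped 2 of 3 H4R3me2a lists and both H4R3me1 lists at P7.

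The bases just after the string were not even either. Counting the nearest site of each of the 441 members, the first base after the string was G in 51.7%, the second was C in 44.2% and the third was C in 46.9%. At the 255 sites found in side windows the same bases stood there in 39.2%, 27.1% and 27.8%. Within the string, the first open position was A in 31.1% of the member sites against 18.04% of the side sites, and the second open position was A in 29.9% against 14.5%. Sites are described without a test, since neighbouring bases are not independent and the string was chosen on these sequences.

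The string was centred on the peaks. By bins of 100 bp, it was in 6.05% of members in the bin just below the middle and 6.42% in the bin just above it, fell to 2.69% between 300 and 400 bp below the middle, and lay between 1.72% and 2.58% in the bins beyond 500 bp on either side. The nearest site in a member's middle window was a median of 45 bp from the middle. Placed on the summit that the peak caller reported instead of the middle, the same window held the string in 7.96% of members against 3.72% at its sides. The summit lay within 100 bp of the middle in 55.9% of members, a median of 84 bp from it.

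**Figure D1:**
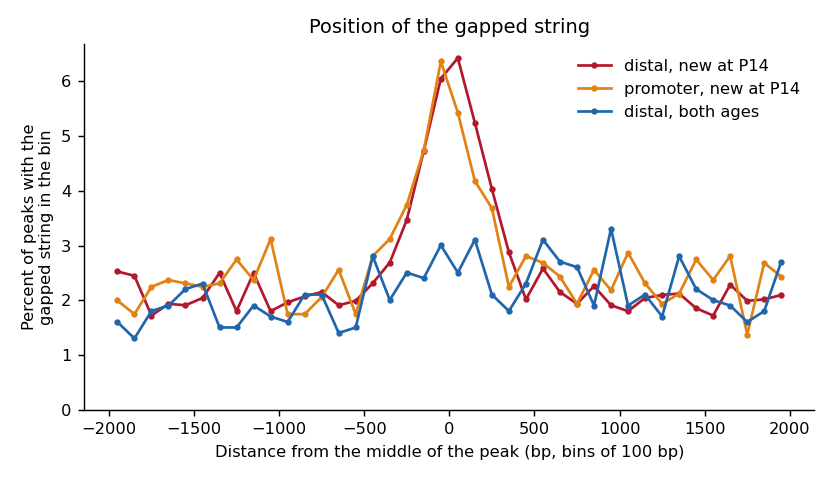
Percent of peaks with the gapped string in each bin of 100 bp, by distance from the middle of the peak, for 3720 distal peaks new at P14, 1603 promoter peaks new at P14 and 998 distal peaks of both ages. Both new classes rise to over 5% within 100 bp of the middle, while distal peaks of both ages stay at or below 3.3% throughout.

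Other classes of P14 peak held the string less or with less contrast. The string was built from words ranked in the members, so this comparison is not independent of its choice. Among the 998 distal H3K4me3 peaks that overlapped both P7 lists, 5.31% held it at the middle and 3.96% at the sides. Among the 1603 promoter peaks that were new at P14, chosen as the members were but within 3000 bp of a start, the shares were 10.7% and 4.52%. Among 13258 promoter peaks of both ages they were 6.38% and 3.64%. The ratio of middle to side was thus 3.46 in the members, 2.37 in new promoter peaks, 1.76 in promoter peaks of both ages and 1.34 in distal peaks of both ages. Single leading words differed in this respect. In distal peaks of both ages GATGCTGC was in 0.701% at the middle and 0.752% at the sides, but GCTGCTGC was in 3.71% and 1.55%, and CTGCTGCC in 3.11% and 1.80%. In new promoter peaks GCTGCTGC was in 6.30% at the middle and 2.12% at the sides, a higher share at the middle than in members.

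Base composition differed as well. The middle windows of members had 47.4% G and C and an observed to expected ratio of CpG of 0.272, against 43.7% and 0.205 at their sides. Distal peaks of both ages had 57.6% and 0.617 at the middle, and promoter peaks of both ages had 66.0% and 0.817. The members were thus poorer in CpG than the other classes and closer to their own surroundings. Repeat-masked bases made up 19.4% of the member middles and 27.5% of their sides.

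The members were narrower than promoter peaks of both ages and moderate in height, given here as a description because the lists that chose them supply these values. Their width in the first P14 list had a median of 551 bp, with quartiles at 332 and 840 bp and a range from 200 to 1994 bp, and 154 members sat at the minimum width of 200 bp. In the second list the median was 655 bp. Distal peaks of both ages had a median of 589 bp, new promoter peaks 416 bp and promoter peaks of both ages 983.5 bp in the first list. Only 15.5% of members were wider than 1000 bp, against 48.3% of promoter peaks of both ages, and 1.64% were wider than 1500 bp, against 11.8%. The other classes were not wider in this way. The upper quartile was 857 bp in distal peaks of both ages, close to the 840 bp of members, and 678 bp in new promoter peaks.

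**Figure D2:**
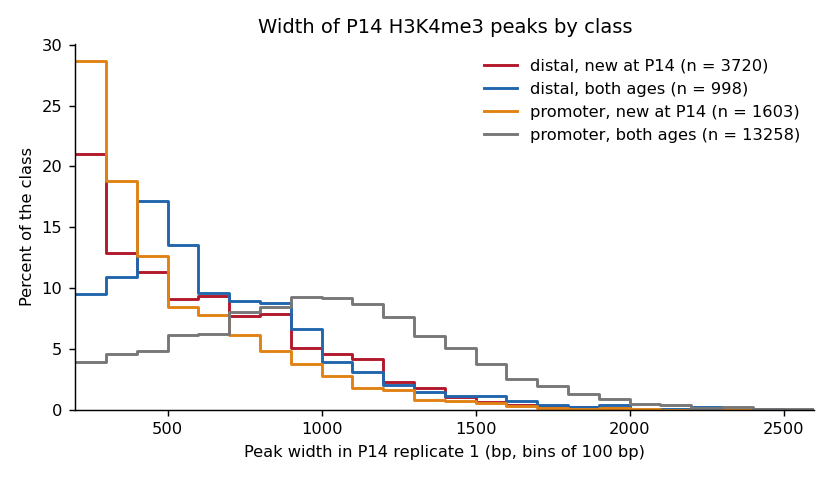
Distribution of peak width in the first P14 H3K4me3 list, in bins of 100 bp, as the percent of each class. The members have their median at 551 bp and end at 1994 bp, whereas promoter peaks of both ages have their median at 983.5 bp. The median is 589 bp in distal peaks of both ages and 416 bp in new promoter peaks.

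Fold enrichment over the peak caller's background had a median of 4.81 in the first and 5.23 in the second P14 list, with the middle 80% of members between 3.60 and 6.62 in the first. The second list had the higher value in most members, the first being higher in 1332 of 3720. Across the 3720 members the 2 lists correlated with Pearson's r = 0.65 on log2 values and Spearman's rho = 0.63, a description over regions that share the same libraries. For comparison, distal peaks of both ages had medians of 5.09 and 5.56, and promoter peaks of both ages 5.87 and 6.32. The median −log10 q of members was 6.05 in the first list and 7.49 in the second, and that of promoter peaks of both ages was 24.01 in the second.

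Stronger members were wider and held the string more often. Ordered by mean fold enrichment into 4 equal groups of 930, the median width was 346, 438, 640.5 and 877 bp. The string was in 7.53%, 11.9%, 12.8% and 15.2% of the middle windows of these groups, while the side windows stayed between 3.01% and 4.25% with no order. The share inside genes stayed between 57.5% and 60.2%. Peaks that failed the rule only because the other list lacked them were weaker still: 2079 distal peaks of the first P14 list had a median width of 254 bp and a median fold enrichment of 3.85, and 5.29% held the string. In the second list 2508 such peaks had a median width of 279 bp, and 6.42% held it.

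The nearest members inside it were a peak in an exon of Sstr3, a somatostatin receptor gene, at chr15:78539754-78540415 with its summit 3005 bp from a start, and a peak in an intron of Uvrag at chr7:99092268-99093425, 3009 bp from the start of Gm33882. The nearest peaks left out were chr12:40784246-40785142, 2993 bp from a start of Dock4, and chr11:58316920-58317246, 2990 bp from a start of Zfp672. Their fold enrichments in the first list were 5.59 and 5.66 for the members and 6.80 and 3.05 for the peaks left out.

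Members lay inside genes more than distal DNA in general did. The summit was in an intron for 1934 members (52.0%), in an exon for 263 (7.07%) and between genes for 1523 (40.9%). Of the 2012 Mb of autosomal sequence over 3000 bp from every start, 41.6% was intron, 2.69% exon and 55.7% intergenic. The share inside a gene of any type was 59.1% in members, and 56.9% without the first P14 H3K4me3 list, against 40.1% in distal peaks of both ages, given as a description without a test. The string was equally frequent in both places, at 11.8% of members inside genes and 11.95% between them.

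The median distance from a member's summit to the nearest transcript start was 14280 bp, with quartiles at 7372 and 30356 bp, and 515 members lay over 50 kb away. Distal peaks of both ages lay closer, at a median of 11561 bp, with 66 over 50 kb. Neighbouring members were a median of 303691 bp apart, and 175 of 3701 gaps were under 5 kb.

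Density was uneven among and along chromosomes. It averaged 1.85 members per Mb of distal sequence and ran from 1.26 on chromosome 3 to 2.78 on chromosome 11, with 331 members on chromosome 2 and 78 on chromosome 19. The density of distal peaks of both ages averaged 0.496 per Mb and was also high on chromosome 11, at 0.753. Divided by those peaks, chromosome 1 had the most members, 5.40 for each peak of both ages, and chromosome 19 the fewest, 2.11. Along the chromosomes, which in the mouse have their centromere at 1 end, each was cut into 10 segments of equal length and the segments were pooled over autosomes. The segment at the centromere end had 0.981 members per Mb, the next had 1.43, the ninth had 2.41 and the last had 1.90. Distal peaks of both ages ran the other way at the centromere end, with 0.617 per Mb in the segment nearest to it and 0.358 in the third.

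**Figure D3:**
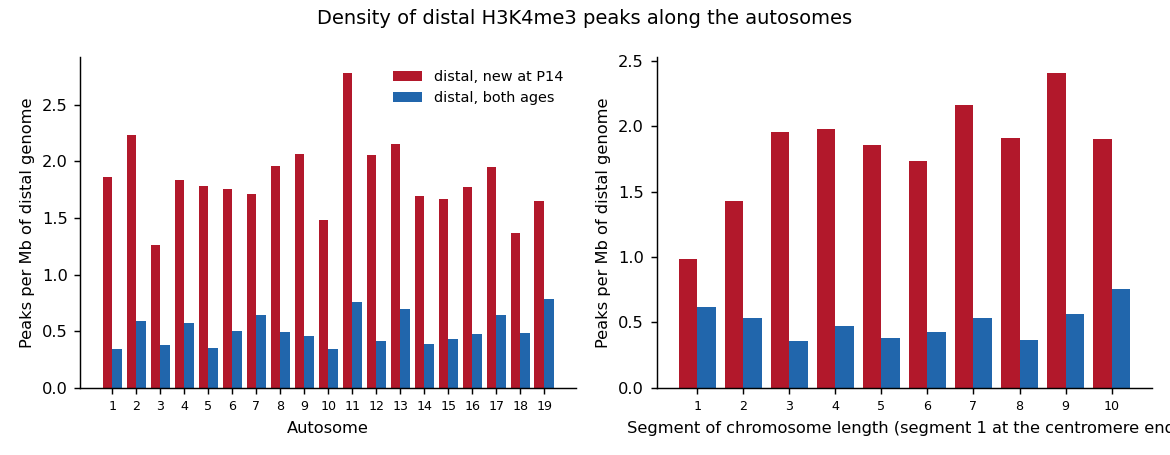
Distal H3K4me3 peaks per Mb of sequence over 3000 bp from every transcript start, by autosome and by 10 segments of chromosome length pooled over autosomes. Members range from 1.26 to 2.78 per Mb among autosomes and are sparsest, at 0.981 per Mb, in the segment at the centromere end.

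Inside genes, the members fell into 1706 host genes, counting each member under its first listed gene, and 1347 of these held 1 member. Asic2, a proton-gated ion channel gene 1088 kb long, held 8, which is 7.35 per Mb. Megf11 and Osbpl10, an oxysterol-binding protein gene, held 6 each at 18.5 and 23.7 per Mb. Gab1, an adaptor of receptor tyrosine kinases, held 5 in 116 kb, or 43.1 per Mb, the highest among genes with at least 5. Host genes were long: 1565 protein-coding genes with a member had a median length of 104 kb against 15.5 kb for those without.

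A larger share of the host genes than of other protein-coding genes was detected as RNA at P7, given here as a description without a test. In the Smart-seq2 spermatogonia, 69.5% of the protein-coding host genes had a mean level of at least 1 TPM, the length-scaled share of transcripts that the authors deposited, against 54.1% of all autosomal protein-coding genes. In whole testis the shares were 80.5% and 63.1%. Among genes of 100 to 300 kb the shares with and without a member were 74.6% and 59.0% in Smart-seq2 and 86.7% and 75.3% in whole testis. Among genes of 10 to 50 kb they were 65.6% and 61.8% in Smart-seq2, a smaller gap. No RNA at P14 was used here, so the shares describe the genes at the younger age.

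RNA levels at P7 are given for 5 genes of meiotic recombination, with no count over a list. Of these, Spo11 was under 1 TPM in 4 of the 5 libraries and the others were above it in all. Prdm9, the zinc finger H3K4 methyltransferase, was at 25.4 and 13.1 TPM in the 2 Smart-seq2 libraries and at 5.38, 4.02 and 3.61 TPM in whole testis. Hells, which encodes a chromatin remodeller that works with PRDM9, was at 341 and 399 TPM in Smart-seq2 and at 84.2, 109 and 75.9 TPM in whole testis. Zcwpw1, a reader of the histone marks that PRDM9 makes, was at 325 and 310 TPM in Smart-seq2 and at 58.7, 71.6 and 63.4 TPM in whole testis.
Dmc1, the meiotic strand exchange protein, was at 19.9 and 43.6 TPM in Smart-seq2 and between 10.3 and 11.5 TPM in whole testis. Spo11, the break-forming enzyme, differed widely between the Smart-seq2 libraries, at 18.9 and 0.09 TPM, and lay between 0.31 and 0.90 TPM in whole testis. The Smart-seq2 values were above every whole-testis value for Prdm9, Hells, Zcwpw1 and Dmc1, and for Spo11 in 1 library of 2. Both kinds of library were made and normalised separately, so their levels were not tested against each other.

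A list of 32 meiotic recombination genes, among them Prdm9, Spo11 and Dmc1, had been set for naming regions, and 26 of them were found by name among the protein-coding genes searched. Of these, 1 (3.85%) had a member inside it or nearest to it, against 10.4% of all 20270 protein-coding genes searched, and a count this low carries no statement about the list. The gene was Msh4, which encodes a partner of MSH5 in holding recombination intermediates, with a peak in an intron at chr3:153900119-153900788, its summit 4173 bp from a start. Its fold enrichment was low, at 3.89 and 4.01, it held the string 60 bases below its middle, and it overlapped 1 P14 list each of H4R3me2a and H3R2me2a.

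The other marks were not used to choose the members, and most members overlapped none of their peaks. Below, no other mark means no overlapping peak in these lists. At P14, 2277 of 3720 members (61.2%) overlapped no peak in any of the 14 lists of the 6 other marks, and for 3219 (86.5%) there was no mark whose P14 lists all overlapped the member. Among distal peaks of both ages, 7.72% overlapped none at P14, and among new promoter peaks 39.3%. At P7, 80.6% of members overlapped no peak of the 6 marks. Members with no other mark at P14 held the string in 13.5% of middle windows against 2.96% at their sides, and the 539 members with a peak of 3 or more other marks held it in 8.35% against 3.43%.

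H3K27ac, the mark of active enhancers and promoters, overlapped 3.98% and 4.30% of members in the P7 lists and 12.3% and 12.1% in the P14 lists. Both P14 lists together called 205 members (5.51%), whereas they called 47.2% of all P14 H3K4me3 peaks found in both lists and 51.9% of distal peaks of both ages. The members called were thus a small share, far under the background, in which promoters are the majority.
The 205 members with H3K27ac differed from the 3017 without it in several respects. Their median width was 445 bp against 572 bp, and their median distance to a start 10919 bp against 15129 bp. Their middle windows had 54.0% G and C against 46.3%, and the string was in 7.32% against 12.7% of them. H3R2me2a overlapped 54.6% of them at P14 against 8.39%, and H3R8me2a 37.3% against 4.19%. Already at P7, 23.9% of them overlapped an H3K27ac peak, averaged over the 2 lists, against 1.19%.

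The marks of asymmetric arginine dimethylation also overlapped a larger share of members at P14, in lists that covered more of the genome at that age. H4R3me2a overlapped 3.90%, 3.44% and 4.11% of members in the 3 P7 lists and 9.46%, 10.8% and 9.62% in the 3 P14 lists. H3R2me2a overlapped 4.68% and 5.03% at P7 and 14.4% and 15.2% at P14, the highest share of any mark. H3R8me2a overlapped 3.49% and 3.63% at P7 and 8.76% and 8.25% at P14. In all 3 marks every P14 list was above every P7 list. Members in every P14 list numbered 130 for H4R3me2a (3.49%, against 24.4% of all P14 peaks), 333 for H3R2me2a (8.95%, against 45.9%) and 147 for H3R8me2a (3.95%, against 28.3%).

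The remaining arginine marks moved less in percentage points, but not relative to the genome that their lists covered. H4R3me1 overlapped 4.97% and 5.16% of members at P7 and 7.82% and 8.15% at P14, without overlap between the ages, and 153 members (4.11%, against 24.9% of all P14 peaks) were in both P14 lists. H4R3me2s overlapped 2.69% and 4.09% at P7 and 5.97%, 3.68% and 4.25% at P14. For this mark the ages overlapped, the second P7 list lying above the lowest P14 list, and 45 members (1.21%, against 13.8%) were in every P14 list.

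**Figure D4:**
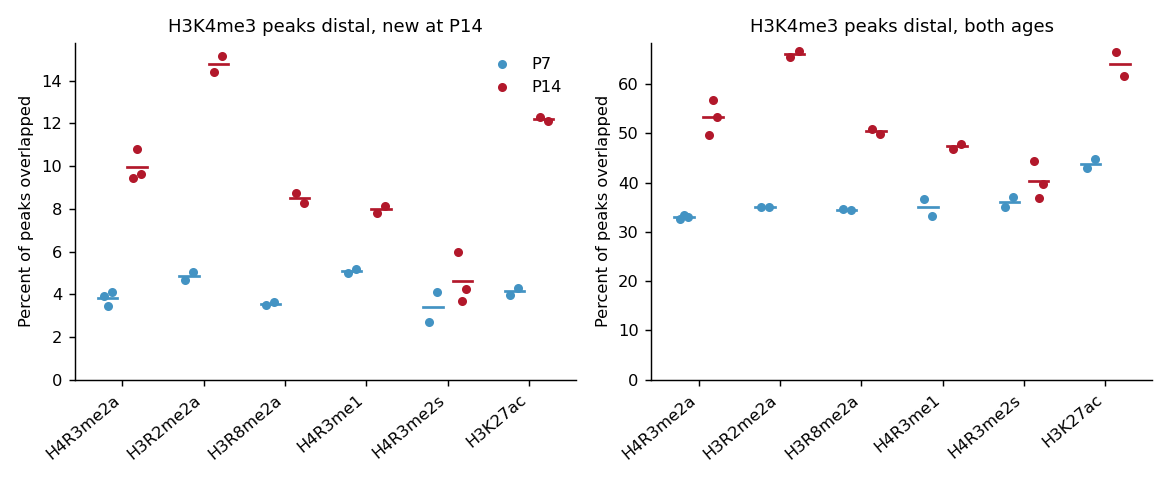
Percent of members (left) and of distal H3K4me3 peaks of both ages (right) overlapped by each list of 6 other marks at P7 and P14, with 1 point for each list and a line at the mean. Members go from between 2.69% and 5.16% at P7 to between 3.68% and 15.2% at P14, and the axes of the panels differ.

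Over the 6 marks together the share of members overlapped rose by 5.54 percentage points from P7 to P14 (exact two-sided permutation test with ages permuted within each mark, p = 1.54e-05, 259200 arrangements of 27 lists). The members were chosen as present at P14 and absent at P7 by H3K4me3, so this rise is not independent of that choice. The test takes lists of different marks as independent, which was not checked. Over all P14 H3K4me3 peaks found in both lists the mean share rose for every mark, from 13.4% to 41.5% for H4R3me2a and from 24.4% to 30.2% for H4R3me2s. In members the rise in the mean by mark was 9.93 points for H3R2me2a, 8.06 for H3K27ac, 6.15 for H4R3me2a, 4.95 for H3R8me2a, 2.92 for H4R3me1 and 1.25 for H4R3me2s. The value for H4R3me2s rested on single lists, being 0.547 points without the first P7 list, 1.94 without the second P7 list and 0.578 without the first P14 list. No single mark could pass 0.05 with so few lists: the exact p was 0.1 for H4R3me2a, 0.4 for H4R3me2s, and 0.33 for the others, the smallest each design allows except for H4R3me2s (0.2), and 0.4 for every mark when adjusted over the 6.

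The lists themselves covered more of the genome at P14 than at P7, except for H4R3me2s, where the ages overlapped. H4R3me2a peaks covered between 0.201% and 0.219% of the autosomes at P7 and between 0.512% and 0.599% at P14. Divided by that coverage, H4R3me2a overlapped members 18.1 ± 2.13 times (SD, n = 3) as often as the genome at P7 and 18.2 ± 0.284 times at P14. H3R2me2a stood at 20.3 ± 0.191 times (SD, n = 2) and 19.1 ± 1.49 times. H3K27ac went from 12.4 ± 0.328 times (SD, n = 2) to 17.6 ± 0.996 times, and H4R3me2s from 11.3 ± 0.597 (SD, n = 2) to 16.0 ± 1.09 (SD, n = 3). On the log2 scale of this ratio the mean rise over the 6 marks was 0.19 (exact permutation p = 0.00634), with 0.51 for H3K27ac, 0.50 for H4R3me2s, 0.14 for H4R3me1, 0.10 for H3R8me2a, 0.01 for H4R3me2a and -0.09 for H3R2me2a. The order of the marks on this scale was thus not that in points, where H3R2me2a rose most and H4R3me2s least. With the lists of each mark cut to the length of the shortest, the rise was 1.86 points (exact permutation p = 7.72e-06), and all 6 marks had higher means at P14.

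The overlap was local. At P14 H3R2me2a peaks covered the middle of 10.4% of members and, 4000 to 5000 bp away, 0.954% of positions. H3K27ac covered 7.81% and 0.727%, H4R3me2a 6.55% and 0.633%, H3R8me2a 5.56% and 0.465%, H4R3me1 4.93% and 0.485%, and H4R3me2s 2.99% and 0.325%. The overlap was local at P7 too, where H4R3me1 covered the middle of 3.40% of them and 0.383% of the positions 4000 to 5000 bp away.

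**Figure D5:**
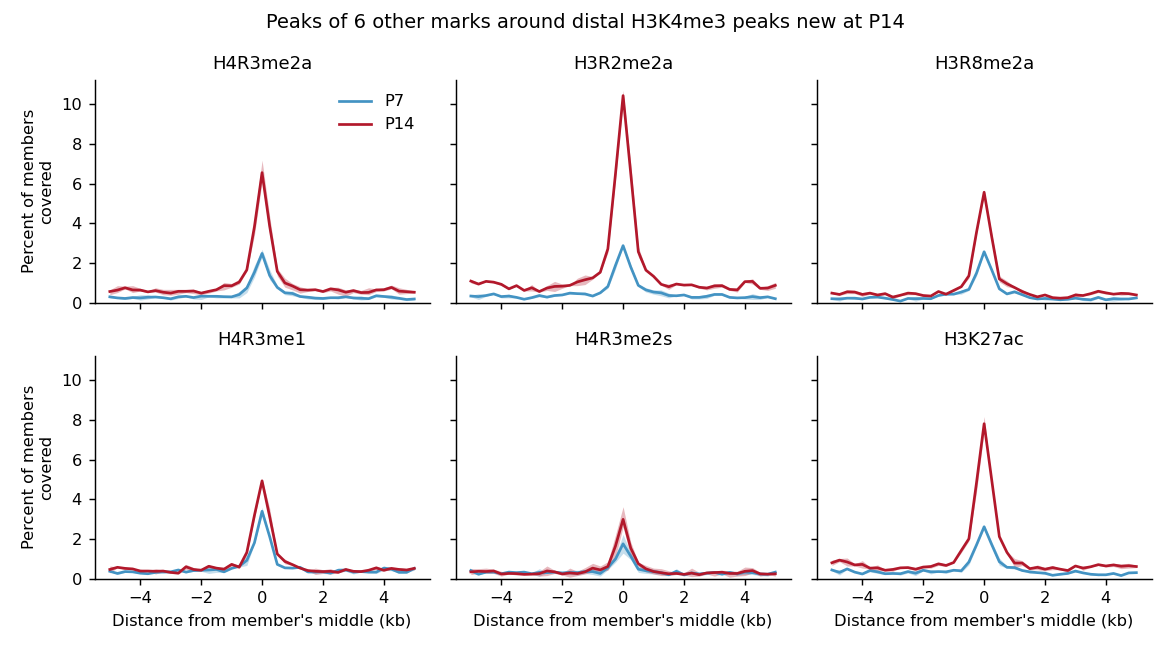
Percent of the 3720 members whose position at a given distance from the middle is covered by a peak of each of 6 marks at P7 and P14, as the mean over lists with the band from the lowest to the highest list. Every mark peaks at the middle at both ages, from 1.76% (H4R3me2s at P7) to 10.4% (H3R2me2a at P14).

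Distal peaks of both ages rose by more than members in percentage points and fell relative to the genome share that the lists covered. H3R2me2a overlapped 35.02% ± 0.0709 of them at P7 and 66.1% ± 0.850 at P14 (SD, n = 2 lists each), and H3K27ac 43.9% ± 1.28 and 64.1% ± 3.54. Over the 6 marks their rise was 17.4 points, and the rise in members minus the rise in these peaks was -11.8 points (exact permutation test, p = 7.72e-06, the smallest this design can give), or -7.23 points with the lists of each mark cut to the shortest. The classes were chosen by opposite H3K4me3 status at P7, so the difference in their rises is not independent of that choice. On the log2 scale of the share over the genome covered, the distal peaks of both ages fell by 0.41 (exact permutation p = 0.00168), their mean being lower at P14 for 5 of the 6 marks, all but H4R3me2s, while members rose by 0.19. The difference between the classes on this scale was therefore 0.60 (exact permutation p = 3.09e-05), of the opposite sign to that in points. The order of the classes thus depends on the scale. Against new promoter peaks, whose rise was 11.05 points, the rise in members was smaller by 5.50 points (exact permutation p = 3.09e-05).

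Loss of Prmt1 could be followed over the members only for H4R3me2s at P7, an age at which the members are in neither H3K4me3 list. In WT 2.69% and 4.09% of members were overlapped, and in Prmt1 dKO 3.90% and 3.17%. The dKO values lay between the WT values, and the difference of the means was 0.15 points (exact permutation p = 1, where 2 lists against 2 cannot go below 0.33). Relative to genome coverage the means were 11.3 times in both genotypes. Over all P14 H3K4me3 peaks found in both lists the shares were 24.5% and 24.3% in WT and 17.7% and 13.9% in Prmt1 dKO. The values for the members, where few H4R3me2s peaks were called, thus do not describe the mark in general.

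The strongest and the widest members show what the class holds. The 8 highest by mean fold enrichment lay between 8.80 and 9.39, and 5 of them were in introns, of Cadm2, Lrmda, Gphn and the non-coding genes Gm20711 and Gm20754. Cadm2, an adhesion molecule of the nervous system, held the peak chr16:66905867-66906550 with fold enrichments of 7.93 and 10.4, no other mark at either age and 1 site of the string. Gphn, which encodes gephyrin, held chr12:78502762-78503623 with 8.06 and 9.54, again with no other mark and with no site. The strongest member between genes, chr14:92214081-92215090, had 10.7 and 8.13 and lay 19099 bp from Gm48944. Another intergenic peak, chr11:26368816-26369551, had 8.61 and 9.54, lay 16783 bp from Fancl, which encodes a ubiquitin ligase of DNA crosslink repair, and like the Cadm2 member had no other mark at P14. Of the 8, 6 overlapped no peak of another mark at P14, and the exceptions were the members in Lrmda and near Drd1, a dopamine receptor gene, the latter with all 3 H4R3me2a lists, both H4R3me1 lists and 1 list each of H3R2me2a, H3R8me2a and H3K27ac.

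The 3 widest members were an exonic peak of Acin1, an RNA-processing factor gene, at chr14:54678165-54680158, an intronic peak of Sptbn5 at chr2:120065371-120067364, both 1994 bp wide, and an intergenic peak of 1950 bp at chr6:147648883-147650832. Their mean fold enrichments were 5.34, 4.98 and 5.19. The Sptbn5 member held the string 4 bases from its middle.
The 3 strongest members in both P14 H3K27ac lists lay in an intron of Efemp1, an extracellular matrix protein gene (chr11:28882890-28883564), between genes at chr6:147387561-147388630, and in an intron of Lims1, a focal adhesion gene (chr10:58370784-58371736). Their mean fold enrichments were 8.20, 8.03 and 7.82, and none held the string. The Lims1 member was the only one of the 3 with at least 1 P14 list of each of the 6 other marks, and it and the Efemp1 member also overlapped an H3K27ac peak at P7 in 1 list of 2.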

How the data were processed

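CUT&Tag peak lists were used as the authors deposited them, in narrowPeak format on mm10, called per sample with MACS2 2.1.0 after fastp 0.23.2, at q 0.05 for H3K4me3 and p 0.005 for the other marks by the peak names; the aligner is not given in the sources used here. The deposited fold enrichment and the deposited −log10 p and −log10 q are the caller's own values. Read depth is unknown, and the number and coverage of peaks limit precision. RNA values are the authors' deposited TPM from RSEM.

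Overlaps of 1 bp, positions, words and exact permutation tests over lists (ages permuted within marks) were computed in Python 3.11.15 with numpy 2.4.6, pandas 2.3.3 and scipy 1.17.1, on autosomes, GENCODE vM21 and the RefSeq GRCm38 sequence, and the tests were tested on simulated data. Lists are the replicates, never regions. Same-numbered P7 and P14 lists of a mark did not deviate together. The members and gene lists were chosen with earlier results of these data known. Named regions were the 8 strongest members, the 3 widest, the 3 strongest in both P14 H3K27ac lists, the 3 strongest with no other mark, those at recombination genes and the 2 nearest the distance limit on each side, with none named on chromosome 18. Alternatives covered the overlap, distance, threshold, list length, left-out lists and windows. Prmt1 dKO RNA was not used here.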

Additional observations from a re-analysis of the deposited data

Results flagged for a closer look

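The rise from P7 to P14 in the share of peaks overlapped by 6 other marks differed between the 3720 members and the 998 distal H3K4me3 peaks of both ages. The rise in members minus that in the other class was -11.8 percentage points (exact two-sided permutation test over 27 lists, p = 7.72e-06), the members starting from between 2.69% and 5.16% at P7 and the other class from between 32.6% and 44.8%. With the lists of each mark cut to the length of the shortest it was smaller, at -7.23 points (exact permutation p = 7.72e-06). It was negative in each of 27 settings that left out 1 list, and positive on the log2 scale of the share over the genome covered, where the other class fell by 0.41. The classes were chosen by opposite H3K4me3 status at P7, so the difference in their rises is not independent of that choice. The cause was not tested.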

How the results depend on the processing

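Read depth is unknown and a peak list records presence only, so a member absent from a list was not detectable there rather than shown to lack the mark. Leaving out a P14 H3K4me3 list drops the demand for a second list by construction. The rise over 6 marks was past 0.05 by the exact permutation test in each setting that could test it, with values between 4.44 and 6.82 points where the members or the lists left out changed, 5.04 for the 5 arginine marks, 4.003 at the summit, 2.76 at q 0.01, and 5.57 under a replicate block (exact permutation p = 0.000488), which changed no other call. The 4.35 points for members with no P7 peak of any mark test nothing, since their P7 shares are 0 by construction. Same-numbered P7 and P14 lists of a mark did not deviate together (correlations over members between -0.0588 and 0.0365), so the numbers were not taken to pair the ages. Lists of different marks were not compared in this way.

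The count of members was 2375 over 10000 bp from starts, 1807 with the P14 lists cut to the shortest P7 list, and between 3910 and 6193 without 1 of the H3K4me3 lists: 5799 without the second P14 list and 6193 without the first. The median width was 670 bp with reciprocal overlap, 700 bp at q 0.0001, 819 bp with cut lists, 637 bp from the second list, and between 374 and 540.5 bp without 1 list. The share inside genes was 61.8% over 1000 bp, 54.6% over 10000 bp and between 56.9% and 58.6% without 1 list. The mean share with H3K27ac was 11.9% with reciprocal overlap, 12.7% over 1000 bp, 11.1% over 10000 bp, 11.98% at q 0.01, 10.6% at q 0.0001, 9.49% with cut lists, 11.7% with no P7 H3K4me3 within 1000 bp, 7.33% with no P7 peak of any mark, 12.5% from the second list, and between 12.1% and 15.1% without 1 list.

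On the log2 scale of the share over the genome covered, the difference from distal peaks of both ages turned to 0.60, that of H3R2me2a by age to -0.0905 and that of H4R3me2s between genotypes to -0.0019. That genotype difference lay between -0.55 and 0.85 points without 1 list, turning negative without the first dKO or the first WT list. A leading word was in 17.8% of even-autosome members against 8.12% of their side windows, in 15.4% against 10.3% around the summit, in 10.4% against 4.17% with windows of 100 bases and in 33.4% against 17.5% with windows of 400 bases. Host genes at 1 TPM or more in Smart-seq2 were between 65.4% and 67.3% without 1 library. The string stood between 9.50% and 14.5% under the alternatives for the choice of members, and was in 6.08% against 1.64% at the sides with windows of 100 bases and in 20.2% against 7.62% with windows of 400 bases. Alternatives for the string, the single marks, the genotypes and the RNA, and lists left out for the difference between classes, were chosen after seeing the data. The causes of these changes were not tested.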

Other observations

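The X chromosome lay outside the rule. By the same rule it held 117 distal peaks new at P14, or 0.801 per Mb of distal sequence, and 28 distal peaks of both ages, or 0.192 per Mb, which is 4.18 new peaks for each peak of both ages. Among autosomes that number ran from 2.11 to 5.40.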
